A study of Mus musculus with 4 samples.

Results

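The respiratory chain and ATP synthase genes were followed through an atlas of the mouse epididymis and vas deferens. They were taken from the deposited table by symbol: *Nduf* genes of the series a, b, c, s and v, the 4 *Sdh* genes, and all genes whose symbols begin with *Uqcr*, *Cox4* to *Cox8* or *Atp5*. The rule found 82 members among 16892 genes, with 37 in complex I, 4 in complex II, 8 in complex III, 16 in complex IV and 17 in the ATP synthase (complex V). All of them are nuclear genes. They held 700544 UMIs (unique molecular identifiers, each standing for 1 captured transcript), or 2.63% of the table. At least 20 UMIs were counted for 80 members, while *Cox8b* had 4 and *Cox8c* had 2. No gene of the mitochondrial genome and neither *Cox6a2* nor *Cox7b2* was among the rows used here.

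The samples were 4 droplet (10x) libraries, 1 each from the caput, corpus and cauda epididymis and from the vas deferens. All came from untreated adult male FVB/NJ mice aged 10 to 12 weeks, with each library pooling the pieces of 8 epididymides from 4 mice, and the suspensions had been depleted of sperm. The libraries held 1433, 2325, 1616 and 3506 cells in that order, with medians of 1433 to 2207 UMIs a cell, and 43 barcodes occurred in more than 1 library. Because a region had 1 library, region and library cannot be told apart, values have no replicates and none was tested. Levels below are UMIs of a gene per 1000000 UMIs of a group of cells (UPM). The 95% intervals cover counting error only.

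The authors' names for cells were used, in 7 broad types and 34 populations. Marker sums were highest in the named type for 6 of 7 lists. The exception was the immune list, which was higher in principal cells (20561 UPM) than in immune cells (6061 UPM) through *Cd52*, with 3 of its 4 genes highest in immune cells. Principal cells are the tall absorptive and secretory cells of the epithelium. Clear cells acidify the lumen with a proton pump that consumes ATP, and basal cells sit beneath both.

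The respiratory chain passes electrons from NADH (complex I) and succinate (complex II) through complex III to oxygen at complex IV. Complexes I, III and IV pump protons out of the mitochondrial matrix, and the ATP synthase lets them return while it makes ATP. A few core subunits come from mitochondrial DNA and the rest from nuclear genes such as these. Nuclear respiratory factors NRF1 and GABP (an ETS protein), YY1, estrogen-related receptors and the coactivator *Ppargc1a* are known regulators of many of the nuclear genes. Several subunits exist as a common form and a tissue-restricted form.

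Muscle cells devoted the largest share of their UMIs to these genes, 5.60% (5.56 to 5.63), followed by clear cells at 4.46% (4.43 to 4.50) and principal cells at 3.43% (3.42 to 3.44). Stromal cells were at 1.68%, basal cells at 1.54%, endothelial cells at 1.36% and immune cells at 1.14%. The distance of principal cells from the 4 lower types lay largely in the vas deferens library. There the principal share was 4.73%, against 1.89%, 2.48% and 2.25% in the caput, corpus and cauda. In the caput it lay below the 2.09% of stromal cells. The lowest of the 3 leading types exceeded the highest of the other 4 by 2.05-fold with all libraries and by 1.13-fold without the vas deferens.

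Clear cells, in contrast, were uniform across libraries, with 4.58%, 4.46%, 4.49% and 4.15% in the order of the libraries above. The last value rested on 38 cells in which principal cell markers reached 11.5% of their level in principal cells. Basal cells spanned 1.36% to 1.74%. Muscle cells were at 5.72% (cauda) and 5.59% (vas deferens), with 3.09% in 7 cells of the corpus. Single cells overlapped between types. Among cells with at least 1000 UMIs, the 10th percentile, median and 90th percentile of the share were 0.810%, 2.87% and 5.73% in 1894 principal cells, 2.10%, 4.25% and 5.95% in clear cells, and 0.797%, 1.43% and 2.01% in basal cells. Thus the lower end of the clear cells lay just above the upper end of the basal cells, while principal cells spanned most of the range of both.

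**Figure D1:**
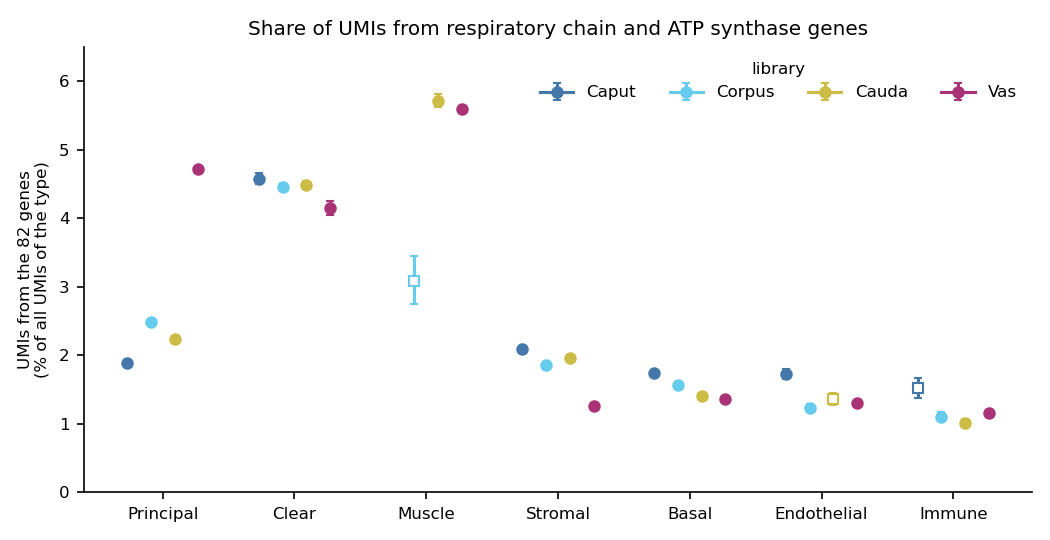
Percent of all UMIs that came from the 82 genes (vertical axis) in each cell type, with 1 point per library and bars for the 95% counting interval. Open squares have fewer than 20 cells. Principal cells of the vas deferens stood at 4.73% and those of the other libraries at 1.89% to 2.48%, whereas clear cells stayed between 4.15% and 4.58%.

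The complexes held unequal parts of the total. Complex IV contributed 36.9% of the members' UMIs, complex I 29.7%, the ATP synthase 20.8%, complex III 11.3% and complex II 1.21%. Their balance shifted between types. Complex I made up 32.1% of the members' UMIs in muscle cells, 31.7% in principal cells and 20.5% in immune cells, and the ATP synthase ran from 17.3% in muscle cells to 27.1% in immune cells. *Ndufa4*, long listed with complex I and now assigned to complex IV, is counted in complex I throughout because of its symbol, and it held 21.9% of the complex I UMIs of muscle cells and 5.99% to 11.3% of those of the other types. With *Ndufa4* moved to complex IV, an alternative chosen after seeing the data, complex I made up 25.1% in muscle cells, below the 29.1% of principal cells, and 19.3% in immune cells. Summed levels of complex I, *Ndufa4* included, were 17985 UPM in muscle, 12434 in clear, 10889 in principal and 3745 in basal cells. Complex II and the ATP synthase were highest in clear cells instead. Complex II was at 701 UPM in clear cells, 550 in muscle, 322 in principal and 295 in stromal cells. Principal cells exceeded stromal cells in complex II only in the vas deferens. From the caput, corpus and cauda to the vas deferens, principal cells had 247, 197, 175 and 442 UPM. Stromal cells had 405, 290, 305 and 258 UPM. The ATP synthase was at 10625 UPM in clear and 9699 in muscle cells.

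Of the 80 members with at least 20 UMIs, 64 had principal, clear and muscle cells as their 3 highest types, an arrangement found in 1613 of 13655 genes (11.8%). Libraries were pooled for these counts. In principal cells 6 of 79 members were below their basal level with all libraries, and 20 of 78 without the vas deferens. The highest type was muscle for 45 members and clear for 25. Among the 13655 genes, muscle was highest for 2189 (16.03%) and clear for 3689 (27.02%). The members' count was thus well above the share of all genes for muscle and close to it for clear cells. Complex I genes leaned to muscle (28 of 37) and ATP synthase genes to clear cells (12 of 17), with 3 of the 4 *Sdh* genes and 5 of the 8 *Uqcr* genes also highest in clear cells. Immune cells were lowest for 53, a count for which no share of all genes was taken. Of the 10 members highest in another type, *Ndufa1*, *Ndufa11*, *Ndufb4* and *Ndufv3*, accessory subunits of complex I, and *Atp5g1*, which encodes the ring subunit c of the ATP synthase, were highest in principal cells. *Cox6b2* and *Cox4i2* were highest in stromal cells, *Cox7a2l* in basal cells and *Ndufa4l2* in endothelial cells.

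**Figure D2:**
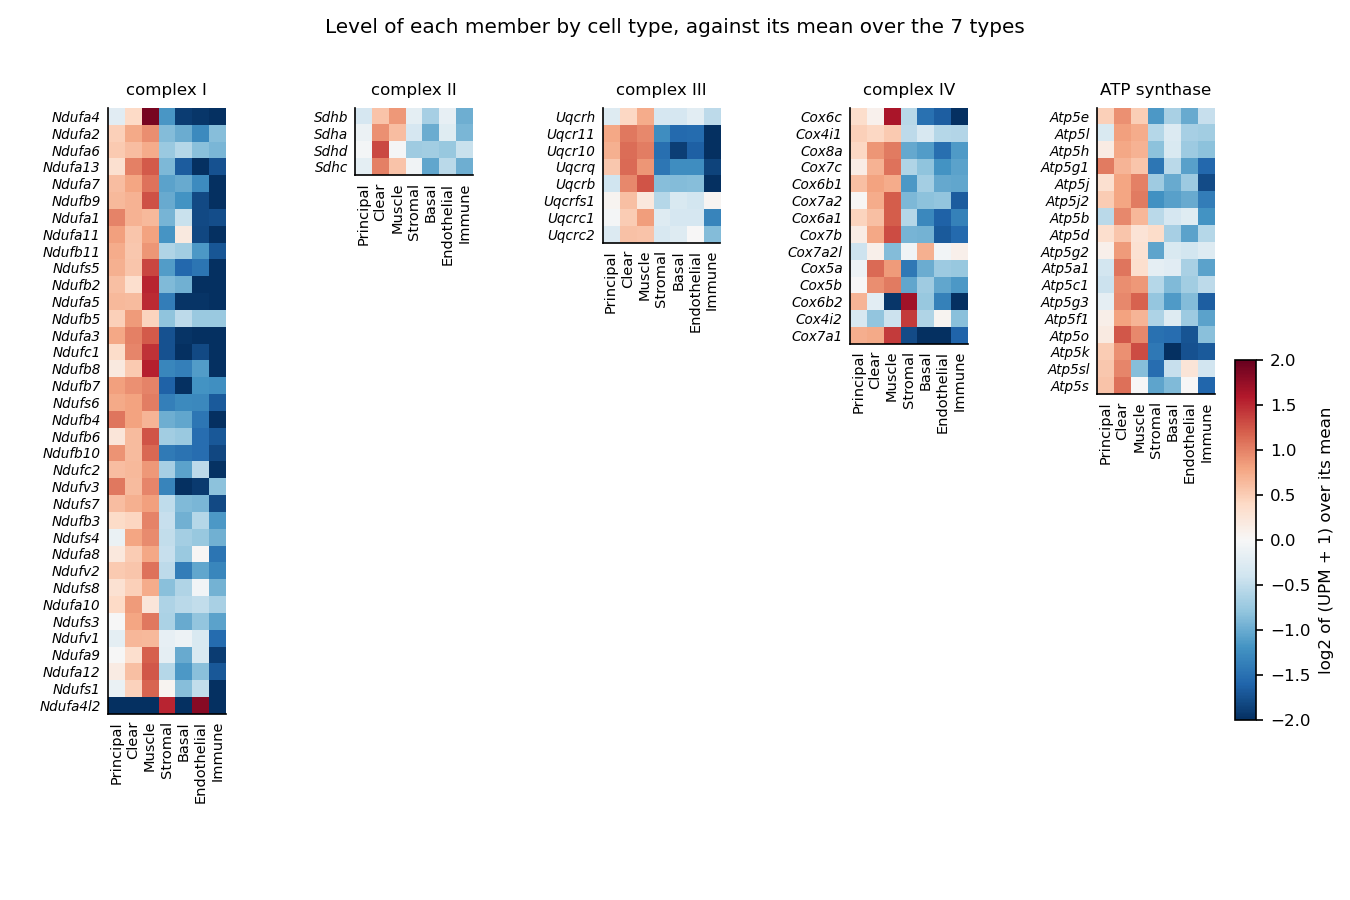
Level of 79 members in the 7 cell types, 1 panel per complex, as log2 of (UPM + 1) over the member's mean of (UPM + 1) in the types (color scale, cut at -2 and 2), with members ordered by total UMIs. With libraries pooled, most rows are red in muscle, clear and principal cells and blue elsewhere. *Ndufa4l2*, *Cox7a2l*, *Cox6b2* and *Cox4i2* break the pattern.

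The member with most UMIs in each complex illustrates the range. *Cox6c*, a small subunit of complex IV, was at 1165, 2279, 1674 and 4455 UPM in principal cells of the caput, corpus, cauda and vas deferens. It was at 6819 and 7506 UPM in muscle cells of the cauda and vas deferens, and between 697 and 957 UPM in basal cells. Muscle cells were above every principal library and basal cells below every one. *Ndufa4* was at 422, 802, 539 and 1246 UPM in principal cells of the 4 libraries and at 3609 and 4020 UPM in muscle cells of the cauda and vas deferens. *Atp5e*, the small epsilon subunit of the ATP synthase, was at 663, 500, 484 and 1145 UPM in principal cells and between 1049 and 1242 UPM in clear cells. For *Uqcrh*, the hinge protein of complex III, the principal levels of 545, 467, 697 and 891 UPM gave a pooled ratio to basal cells of only 1.05. *Sdhb*, the iron-sulfur subunit of complex II, was the most abundant *Sdh* gene.

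Principal and basal cells share the epithelium and were compared first. A member was counted as higher or lower when its UPM differed by at least 2-fold with at least 20 UMIs in the higher group. In principal cells 45 of 79 members were at least 2-fold higher and 1 was at least 2-fold lower, where 28.8% and 19.3% of all 11644 genes entered were. The median ratio of the members was 2.14. By library the numbers higher were 13, 22, 30 and 63 from the caput to the vas deferens, against 19.8%, 29.5%, 26.2% and 29.4% of all genes. Without the vas deferens the pooled count was 19 of 78, against 26.2% of all genes. The members' count was thus below the share of all genes in the caput, corpus and pooled epididymis, and above it in the cauda and the vas deferens. The excess was found in each of the 4 libraries for 11 of 76 members (7.14% of all genes). Complex I supplied 26 of the 45 and complex II none.

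The highest ratio belonged to *Cox7a1*, the form of subunit 7a of complex IV known from heart and skeletal muscle. It had 205 UMIs in principal cells (21.4 UPM) and 5 in basal cells (0.809 UPM), a ratio of 26.5 (11.2 to 82.5) that became 4.45 without the vas deferens. Without the caput 2 basal UMIs were left and the ratio was 59.3 (16.2 to 494). *Ndufv3*, an accessory subunit near the NADH-binding site, was higher in principal cells of every library. Its level in principal cells was 221, 212, 287 and 296 UPM in the 4 libraries against 33.3, 19.1, 12.6 and 13.3 UPM in basal cells, a pooled ratio of 13.4 (11.2 to 16.2). *Ndufb7* followed at 9.83. The ratios of *Ndufa3* (6.78) and *Ndufa5* (6.21) became 3.89 and 2.39 without the vas deferens.

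At the other end, *Cox7a2l* was the one member at least 2-fold lower in principal cells (0.455, 0.431 to 0.480). It encodes a factor that joins complexes III and IV into a supercomplex. Basal cells held 680, 583, 561 and 291 UPM and principal cells 215, 250, 312 and 229 UPM, so that basal cells were higher in every library. The catalytic beta and alpha subunits of the ATP synthase, *Atp5b* (0.873) and *Atp5a1* (0.903), and *Ndufv1* (0.945) and *Atp5l* (0.977) had pooled ratios near 1. A pooled ratio near 1 does not mean equal levels in each library. That of *Atp5b* became 0.561 without the vas deferens.

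Clear cells exceeded basal cells more broadly. Here 69 of 79 members were at least 2-fold higher and none lower, against 28.7% and 14.1% of all 10168 genes entered, and the median ratio was 3.06. By library 58, 65, 66 and 59 were higher, against 13.3%, 23.2%, 34.6% and 7.46% of all genes. In each of the 4 libraries, 47 of 73 members were at least 2-fold higher (4.88% of all genes). All 17 ATP synthase genes and all 4 *Sdh* genes were among the 69. Among the *Sdh* genes the ratios were 4.21 for *Sdhc*, 4.10 for *Sdhd*, 3.81 for *Sdha*, the flavoprotein that oxidizes succinate, and 2.36 for *Sdhb*. *Sdhd*, a membrane anchor, was at 211, 201, 193 and 214 UPM in clear cells of the 4 libraries. Beyond *Cox7a1* (32 against 5 UMIs, 27.1, and 53.9 with an interval of 13.5 to 468 without the caput, from 2 basal UMIs), the largest ratios were those of *Ndufb7* (10.5), *Ndufv3* (9.93), *Ndufc1* (8.23) and *Uqcr10* (8.08, with 989 against 122 UPM). The lowest were *Cox7a2l* at 0.648, *Cox4i2* at 0.859 (13 UMIs in clear cells, with 0.431 without the corpus and 1.36 without the cauda), *Ndufa11* at 1.29, *Cox6b2* at 1.47 (0.953 without the vas deferens) and *Cox4i1* at 1.67.

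Muscle cells were compared with stromal cells, the other mesenchymal group. Of 79 members, 64 were at least 2-fold higher and 4 lower in muscle, while 13.8% and 23.2% of all 10777 genes were. In the cauda 59 were higher and in the vas deferens 67 (7.61% and 20% of all genes), and 58 of 76 members were higher in both (6.41% of all genes). *Cox7a1* (11.9, and 6.71 without the vas deferens), *Ndufc1* (9.30), *Ndufa4* (8.33), *Ndufa3* (8.01, and 5.22 without the vas deferens) and *Ndufa5* (7.43) led.

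Among the lower members, *Ndufa4l2* and *Cox4i2* depended on the library, while *Cox6b2* stayed lower without the vas deferens. *Ndufa4l2* had 1 UMI in muscle and 225 in stroma, a ratio of 0.0189 (0.000477 to 0.106) that became at most 0.708 without the vas deferens, where muscle had 0 UMIs and was set to the floor of 3. *Cox6b2* stood at 0.0737 (14 against 808 UMIs, and 0.0227 with an interval of 0.000574 to 0.127 without the vas deferens, from 1 muscle UMI) and *Cox4i2* at 0.268 (0.944 without the vas deferens). *Cox7a2l*, at 0.572, was lower but did not reach 2-fold. The stromal cells of the vas deferens differed from those elsewhere in their make-up, since the stem-like (0.956% of UMIs from members) and secretory (0.808%) populations lay almost wholly there. The contractile stromal population, present in all 4 libraries, had 2.14%, 1.97%, 2.33% and 2.30%.

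**Figure D3:**
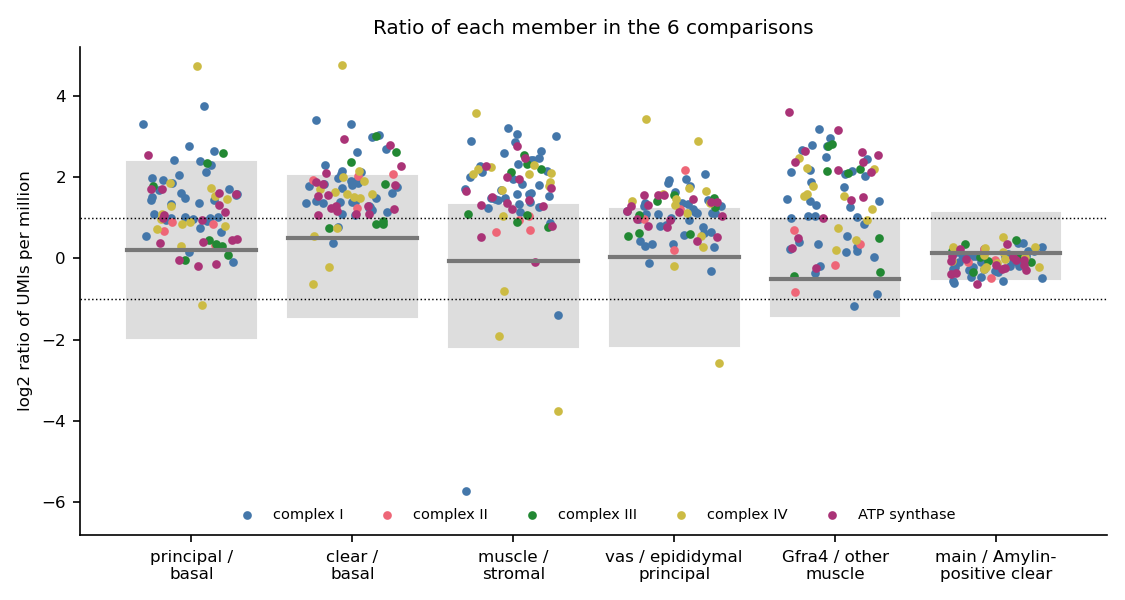
Log2 ratio of UPM for each member that entered (points, colored by complex) in the 6 comparisons. Gray boxes span the 10th to 90th percentile of all genes entered, the gray line is their median, and dotted lines mark 2-fold. Most members sit above the gene median in the first 5 comparisons, and all lie within 2-fold between the clear cell populations.

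Principal cells of the vas deferens were then set against those of the epididymis. The share of UMIs was 2.16-fold higher (2.14 to 2.17) in the vas deferens, 48 of 79 members were at least 2-fold higher and 1 was lower (14.1% and 19.1% of all 10398 genes), and the median ratio was 2.20. The members higher numbered 49, 40 and 54 against the caput, corpus and cauda taken singly (21.2%, 16.1% and 25.5% of all genes), and 33 of 78 were higher than in each of the 3 libraries (8.22% of all genes). *Cox7a1* was at 5.80, 1.41 and 3.45 UPM in the caput, corpus and cauda and at 39.9 in the vas deferens, a ratio of 10.8 (6.67 to 18.7). *Cox6b2*, the form of subunit 6b best known from testis, was at 6.38, 16.2, 22.4 and 110 UPM, a ratio of 7.38. The vas deferens was above all 3 epididymal libraries for both.

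*Sdhb* was at 57.4, 20.4, 26.4 and 161 UPM in the same order, a ratio of 4.52 (6.79 without the caput). Its partner *Sdha* did not follow, with 95.2, 81.8, 75.9 and 97.2 UPM and a ratio of 1.15 (1.01 to 1.32). *Sdhc* (36.0, 39.5, 27.6 and 79.7 UPM) and *Sdhd* (58.6, 55.7, 44.8 and 104 UPM) lay between, at ratios of 2.34 and 1.97. In the same comparison *Ndufs5* had a ratio of 4.21 and *Ndufa11* one of 3.85. *Cox4i2* was the member at least 2-fold lower (0.169), but 88 of its 105 epididymal UMIs were in the cauda, and without that library the ratio was 0.671. *Ndufa1*, with 520, 570, 835 and 526 UPM, had a ratio of 0.813, *Cox7a2l* 0.882 and *Ndufc2* 0.921.

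Along the duct the principal cells divide into 15 populations, numbered here from caput to vas deferens. The share of UMIs from members was 1.77%, 2.05%, 1.15%, 0.775%, 2.31%, 1.68%, 3.36%, 2.70%, 3.38%, 1.06% and 1.61% in principal 1 to 11 and 4.87%, 4.57%, 4.89% and 5.13% in principal 12 to 15, nearly all of whose cells were from the vas deferens. The 4 vas deferens populations were above all others. Between them and the caput the shares did not form a steady gradient, and the low populations 3, 4, 6, 10 and 11 were also those with the least RNA of cytosolic ribosomal proteins (2.13% to 7.15% of UMIs, against 8.93% to 20.8% in the other principal populations). The part of that difference in the members' shares was not tested. Where 1 population occurred in several libraries, the values were 2.36% (caput) and 2.28% (corpus) for principal 5, 2.51% (corpus) and 2.70% (cauda) for principal 8, 3.15% (cauda) and 3.86% (vas deferens) for principal 9, and 1.34% (cauda) and 2.27% (vas deferens) for principal 11. Both of these pairs that spanned the cauda and the vas deferens were higher in the vas deferens. Libraries with fewer than 20 cells of a population were left out of the pairs. Principal 10 was left out for this reason, with 166 cauda and 16 vas deferens cells. Its share was 1.07% in its cauda cells and 1.06% over all its cells, so it did not show a rise outside the cauda.

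Complex II varied least of the complexes among principal 1 to 11. Its rise in the vas deferens was like theirs. The ratio of vas deferens to epididymal principal cells was 2.14 for complex II. It was 2.14, 2.21, 2.07 and 2.36 for complexes I, III, IV and the ATP synthase. Complex II ranged only from 153 to 262 UPM in principal 1 to 11 and then was at 377, 441, 525 and 596 UPM in principal 12 to 15. The intervals of principal 12 (349 to 408) and principal 15 (545 to 651) did not overlap. Those of complex I (14625 to 14988 and 16428 to 16988) and the ATP synthase (9456 to 9749 and 10261 to 10705) did not either. Complex I was at 14805, 14753, 15795 and 16706 UPM and the ATP synthase at 9601, 9091, 10412 and 10481 UPM in those 4 populations. Among the complex II genes *Sdhb* was at 132, 141, 213 and 258 UPM there.

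**Figure D4:**
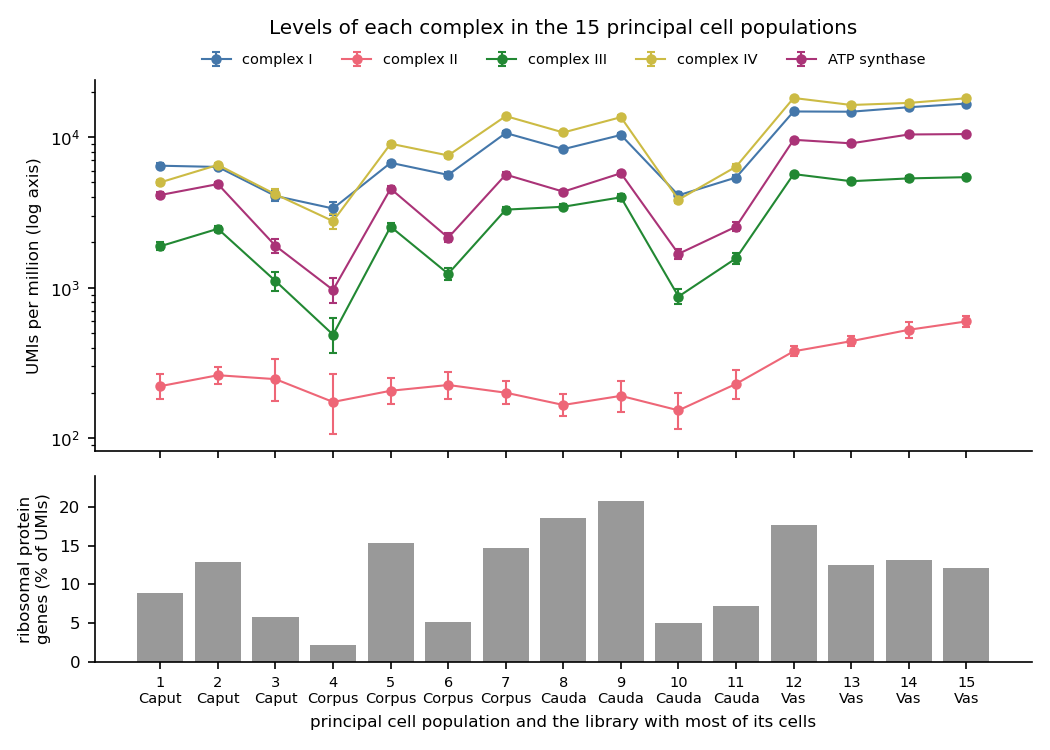
Summed level of each complex in UPM (top, log axis, bars are 95% counting intervals) and percent of UMIs from cytosolic ribosomal protein genes (bottom) in principal 1 to 15, each labeled with the library of most of its cells. Up to principal 11, complex I ranges from 3356 to 10647 UPM and complex II from 153 to 262 UPM. All 5 complexes are highest in principal 12 to 15, where complex II reaches 596 UPM.

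Across all 34 populations, the log2 levels of complexes I, III, IV and the ATP synthase had pairwise Pearson correlations from 0.82 (complex I with the ATP synthase) to 0.98 (complex III with the ATP synthase), and complex II had 0.69 to 0.73 with the other 4. These points share libraries and a denominator, so the coefficients are descriptions. Over the 24 populations with at least 10% of UMIs from ribosomal protein genes, those 4 were at 0.93 to 0.98 with each other and complex II at 0.70 to 0.85 with them. The single genes most like the rest of the group were *Uqcr10* (Spearman rho 0.96 with the sum of the other members) and *Ndufa7* (0.95). The least like were *Ndufa4l2* (-0.57), *Cox4i2* (-0.39), *Cox7a2l* (0.23), *Atp5s* (0.23), *Atp5sl* (0.24) and *Cox6b2* (0.31). Most of these genes were sparse, and populations with 0 UMIs of a gene were ordered by their depth alone. *Ndufa4l2* had 0 UMIs in most principal populations, and *Atp5s* had at most 22 in any population.

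Within muscle, the population marked by *Gfra4* (6.30% of UMIs from members) stood above the other muscle cells (2.76%), in the cauda (6.19% and 2.23%) as in the vas deferens (6.34% and 2.83%). The 2 populations also differed in depth, with medians of 5423.5 and 1080.5 UMIs a cell. The part of depth in their difference was not tested. At least 2-fold higher were 46 of 75 members and lower 1, against 9.64% and 18.3% of all 5817 genes. *Atp5e* had the largest ratio, with 1045 against 85.9 UPM (12.2, 8.26 to 18.7), followed by *Ndufa11* (9.11, and 2.60 without the vas deferens, from 8 UMIs of other muscle), *Atp5l* (8.86), *Ndufa2* (7.85, and 15.0 with an interval of 5.07 to 72.9 without the vas deferens, from 3 UMIs) and *Uqcrq* (7.05). The core subunit *Ndufs1* was lower (0.441, and 0.226 without the vas deferens, from 6 and 4 UMIs), and *Ndufa10* (0.549), *Sdha* (0.563) and *Uqcrc1* (0.740, and 1.14 without the vas deferens) were the next. Complex II was level between the populations (sum ratio 1.01, 0.851 to 1.21).

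The other muscle cells also had less ribosomal protein RNA, 2.62% of UMIs against 12.9%, and 75 of 77 ribosomal protein genes that entered were at least 2-fold higher in *Gfra4* muscle. Transcript length moved with the ratio as well, a property examined after the values were seen. Members with under 1000 exon bases had a median ratio of 4.21 and longer members 1.71, and all genes were split alike (1.94 and 0.678). Members were short, with a median of 971 exon bases against 3120 for the genes of the table. In the comparison of principal with basal cells the split was 2.76 and 1.96 for members and 2.35 and 1.13 for all genes, in clear cells 3.39 and 2.78 for members and 1.66 and 1.41 for genes, and in muscle against stroma 3.79 and 2.72 for members and 1.12 and 0.949 for genes. The part of length in these ratios was not tested.

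Main and Amylin-positive clear cells did not separate on these genes. Their shares were 4.58% and 4.49%, a ratio of 1.02 (1.002 to 1.04). None of 77 members reached 2-fold in either direction, although 12.1% of all 6766 genes were at least 2-fold higher in the main clear cells and 1.24% lower. The populations held 1088546 and 329500 UMIs, and no share was taken over genes as abundant as the members. The ratios ran from 0.642 for *Atp5f1*, a stalk subunit of the ATP synthase, through *Ndufs8* (0.656), *Ndufs7* (0.684), *Ndufc2* (0.685) and *Ndufb6* (0.711), to *Atp5e* (1.29), *Ndufv3* (1.30), *Ndufa2* (1.30), *Uqcrq* (1.37) and *Cox6b2* (1.44, 0.661 to 3.57, with 2.28 without the cauda and 0.869 without the vas deferens). The low-UMI clear cells had 1.27%, with 2.64% of UMIs from ribosomal protein genes.

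Subunits with alternative forms allow a comparison free of the denominator, as the share of 1 form in the UMIs of its pair or trio. The proximal promoters of 3 such groups are shown because their members moved apart between cell types. Each line gives the 250 bases before the RefSeq start site on GRCm38.p6, 5′ to 3′ on the gene's strand. Capitals mark a match on either strand to the NRF1 palindrome, spelled out in the line of Atp5g2, or to the ETS letters CCGGAAG, and the YY1 letters AAGATGGCG were searched too. The windows are chr9:79759854-79760103 (minus strand), chr7:30183921-30184170 (plus), chr7:30626115-30626364 (minus), chr7:4753095-4753344 (minus), chr11:96075632-96075881 (minus), chr15:102671048-102671297 (minus) and chr2:73911327-73911576 (minus). GENCODE places the start of Cox7a1 inside its window.
Cox7a2: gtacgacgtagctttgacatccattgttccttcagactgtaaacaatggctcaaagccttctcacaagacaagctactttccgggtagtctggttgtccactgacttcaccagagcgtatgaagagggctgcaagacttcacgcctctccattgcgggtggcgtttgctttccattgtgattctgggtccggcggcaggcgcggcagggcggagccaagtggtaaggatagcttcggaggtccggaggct
Cox7a1: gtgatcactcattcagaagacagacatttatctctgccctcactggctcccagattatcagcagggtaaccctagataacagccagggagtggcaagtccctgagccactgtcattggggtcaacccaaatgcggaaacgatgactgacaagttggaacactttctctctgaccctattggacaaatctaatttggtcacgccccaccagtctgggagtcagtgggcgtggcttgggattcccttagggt
Cox6b1: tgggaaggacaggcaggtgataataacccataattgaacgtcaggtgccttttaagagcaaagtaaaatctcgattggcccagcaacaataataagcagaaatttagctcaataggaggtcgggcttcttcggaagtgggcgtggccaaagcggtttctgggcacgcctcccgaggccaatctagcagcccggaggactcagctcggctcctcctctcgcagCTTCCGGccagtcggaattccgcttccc
Cox6b2: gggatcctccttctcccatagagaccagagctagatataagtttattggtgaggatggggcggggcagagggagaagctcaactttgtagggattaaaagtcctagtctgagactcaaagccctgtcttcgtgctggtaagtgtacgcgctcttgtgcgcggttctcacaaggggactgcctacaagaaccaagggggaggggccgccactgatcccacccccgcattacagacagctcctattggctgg
Atp5g1: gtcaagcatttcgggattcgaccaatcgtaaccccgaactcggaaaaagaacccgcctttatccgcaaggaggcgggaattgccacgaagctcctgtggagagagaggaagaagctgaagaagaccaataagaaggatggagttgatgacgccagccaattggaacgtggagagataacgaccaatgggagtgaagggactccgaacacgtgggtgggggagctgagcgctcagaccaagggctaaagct
Atp5g2: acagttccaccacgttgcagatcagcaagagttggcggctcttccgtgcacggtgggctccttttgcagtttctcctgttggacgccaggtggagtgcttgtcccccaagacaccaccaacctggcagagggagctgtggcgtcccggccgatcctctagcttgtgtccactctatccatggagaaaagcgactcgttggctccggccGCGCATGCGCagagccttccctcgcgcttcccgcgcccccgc
Atp5g3: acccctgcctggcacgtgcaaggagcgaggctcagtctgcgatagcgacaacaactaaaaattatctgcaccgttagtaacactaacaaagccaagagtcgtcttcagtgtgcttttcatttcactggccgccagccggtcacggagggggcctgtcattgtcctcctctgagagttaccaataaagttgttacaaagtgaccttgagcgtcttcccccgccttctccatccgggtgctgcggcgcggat

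In the windows of 300 bases that also include 50 after the start, *Cox7a2* held 20 CpG and *Cox7a1* held 7, and *Cox6b1* held 17 and *Cox6b2* held 10. The trio *Atp5g1*, *Atp5g2* and *Atp5g3* held 16, 20 and 21. The median was 19 over the 74 windows of the 68 members that could be matched and 7 over all 32851 windows of the table, and 3 member windows were at or below that median. The NRF1 palindrome occurred in 5 member windows (6.76%, against 0.971% of all windows), CCGGAAG in 16 (21.6%, against 8.86%) and AAGATGGCG in 9 (12.2%, against 1.40%). At least 1 was present in 27 (36.5%, against 10.8%). A match describes letters and says nothing of binding.

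The subunit c genes *Atp5g1*, *Atp5g2* and *Atp5g3* encode the same mature protein behind different import sequences. *Atp5g1* made up 56.4% (55.5 to 57.2) of the trio in principal cells and 25.3% to 39.2% in the 6 other types. Among libraries the principal share was 63.9%, 49.7%, 35.8% and 58.0% from the caput to the vas deferens, so the cauda fell within the range of the other types. Its level there was 195 UPM, against 644, 433 and 1172 in the caput, corpus and vas deferens. *Atp5g2* led in immune cells with 58.4% (52.6 to 64.1) and was lowest in principal cells at 27.2%. *Atp5g3* ranged from 16.2% in immune and 16.4% in principal cells to 37.1% in muscle cells.

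*Cox6b2* made up 28.0% (26.3 to 29.6) of the 6b pair in stromal cells, with 39.0%, 38.5%, 13.4% and 18.1% by library, and 0.770% in muscle cells. Every library of stroma exceeded every library of principal cells, where the share was 1.42%, 2.73%, 3.76% and 6.25%. *Cox4i2*, the form of subunit 4 linked to low oxygen, was 3.30% (2.93 to 3.70) of its pair in stroma. This was a vas deferens value, with 0.544%, 0.821%, 1.76% and 8.37% in the 4 libraries and 10.4% in the stem-like population. Other types lay between 0.357% and 1.32%. The common form *Cox4i1* was at 1191, 3419, 2618 and 2839 UPM in principal cells by library and peaked at 4378 UPM in principal 7. *Cox7a1* was 2.72% of its pair in principal cells (1.40%, 0.296%, 0.819% and 3.45% by library), 1.95% in muscle, 1.69% in clear and 0.190% in basal cells. It was thus a minor form even in muscle. Of subunit 8 nearly all UMIs were *Cox8a*, with the 4 of *Cox8b* in muscle, principal and stromal cells and the 2 of *Cox8c* in basal and principal cells.

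**Figure D5:**
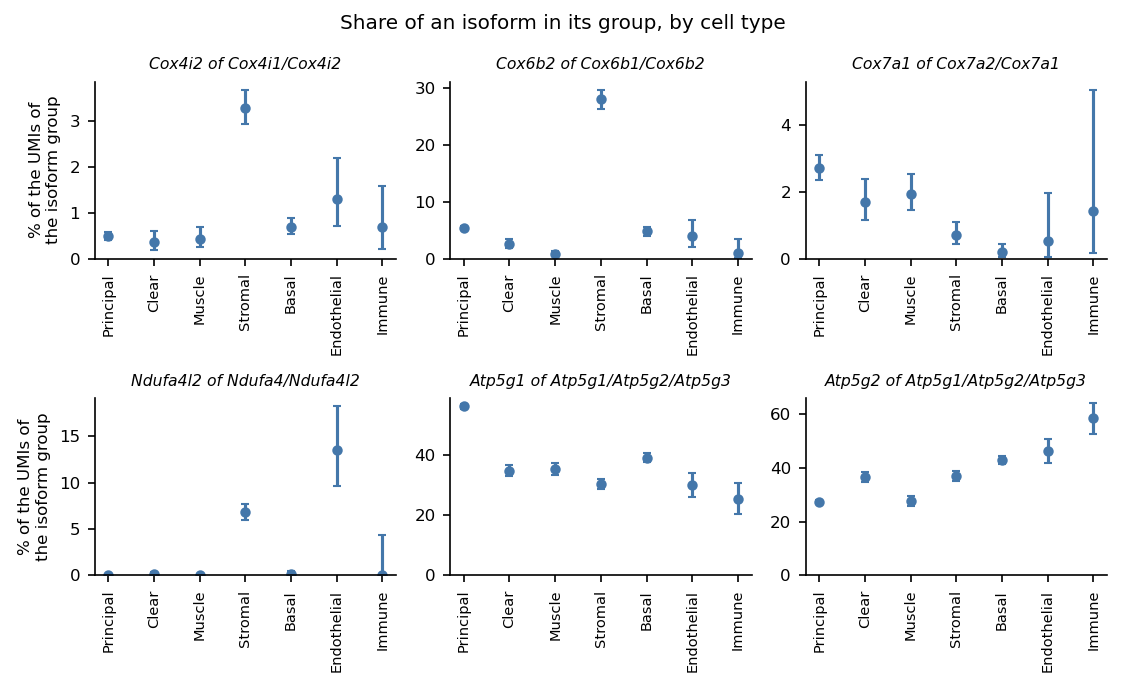
Percent of the UMIs of an isoform group held by 1 form in each cell type, with 95% Clopper-Pearson intervals, for *Cox4i2*, *Cox6b2*, *Cox7a1*, *Ndufa4l2*, *Atp5g1* and *Atp5g2*. *Atp5g1* is highest in principal cells (56.4%) and *Cox6b2* in stromal cells (28.0%).

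*Ndufa4l2*, a gene induced in low oxygen and found in cells around vessels, was 13.5% (9.66 to 18.2) of its pair with *Ndufa4* in endothelial and 6.84% in stromal cells. It was 0.114% or less in principal, clear, muscle and basal cells, and 0 of 82 UMIs in immune cells, which allows up to 3.66%. The endothelial value came from 36 UMIs in 7 of 245 cells, 33 of them in 5 caput cells. In the 2 UMI-bearing principal cells of 3956 (0.0506%) the gene had 1 UMI each. Those 7 endothelial cells were unlike the rest in genes chosen after their values were seen. *Rgs5* and *Pdgfrb*, markers of pericytes, were at 3294 and 929 UPM against 11.1 and 12.3 in the other 238 cells. The endothelial markers *Pecam1* (127 against 675 UPM), *Cdh5* (42.2 against 670) and *Kdr* (0 UMIs against 376 UPM) were lower. The endothelial label thus did not match the markers of the cells that carried *Ndufa4l2*. In stroma, *Ndufa4l2* was at 20.3, 18.3, 9.37 and 64.2 UPM by library.

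The other genes of the pathway were counted, in lists of related function, in 4 comparisons: principal against basal cells, clear against basal cells, muscle against stroma, and vas deferens against epididymal principal cells. In that order, 28.8%, 28.7%, 13.8% and 14.1% of all genes entered were at least 2-fold higher and 19.3%, 14.1%, 23.2% and 19.1% lower. Genes of the mitochondrial ribosome were higher for 34 (44.2%), 35 (45.5%), 32 (41.6%) and 33 (42.9%) of 77, with 0, 0, 1 and 1 lower. *Mrpl37*, a large-subunit protein, had both the highest ratio of its list in principal against basal cells (20.9) and the lowest in the vas deferens comparison (0.0432). Assembly factors were higher for 12 of 27 (44.4%), 13 of 26 (50.0%), 8 of 26 (30.8%) and 5 of 27 (18.5%) in the same order, with 0, 1, 0 and 1 lower, so that the last count was close to the share of all genes. *Cox15*, needed for the heme of complex IV, had the top ratio in principal cells, from only 36 against 2 UMIs, and the copper chaperone *Cox17* the top ratio in clear cells (11.6) and muscle (7.19).

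Fuel pathways were counted in the same way. Pyruvate dehydrogenase and citric acid cycle genes were higher for 1 of 17 (5.88%) and lower for 1 in principal against basal cells, with *Idh3a* at 0.378, and higher for 2 of 17 (11.8%) in the vas deferens, both below the share of all genes. They were higher for 9 of 17 (52.9%) in clear cells and for 6 of 17 (35.3%) in muscle (*Suclg1* 4.63), both above it, with none lower. Glycolysis genes were higher for 2 of 16 (12.5%) and lower for 7 (43.8%) in principal cells, where *Pfkp* stood at 0.0934 and *Aldoc* at 9.11. In muscle 2 of 15 were higher (13.3%) and 1 lower, and in the vas deferens 1 was higher (6.67%) and 4 lower (26.7%). In clear cells 6 of 15 were higher (40.0%) and none lower, led by *Ldhb*, the lactate dehydrogenase form that favors lactate use, with 1751 against 41.9 UPM (41.8). Fatty acid oxidation genes were higher for 3 of 17 (17.6%), 7 of 16 (43.8%), 3 of 17 (17.6%) and 5 of 17 (29.4%) in the 4 comparisons, with 1, 0, 0 and 1 lower. The first of these was below the share of all genes and the third near it. *Acadm*, which starts the oxidation of medium chains, was at 4.76 in clear cells. In the vas deferens *Etfb*, an electron carrier of this pathway, was at 6.47 and *Acaa2* at 0.0659.

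Of carriers and partners, the creatine kinases marked different cells. Mitochondrial *Ckmt1* had 277 UMIs in clear cells (190 UPM), 4 in basal cells and none in muscle. Cytosolic *Ckm* was at 1010 UPM in muscle and 7.09 in stroma, a ratio of 142, and was 10.7-fold higher in vas deferens than in epididymal principal cells. *Atpif1*, the inhibitor of the ATP synthase, was highest in principal cells (1141 UPM, with 885 in clear and 401 in basal cells). *Usmg5*, an accessory protein of the ATP synthase, had the largest ratio of its list between *Gfra4* and other muscle (11.7). Of the genes that remove peroxide in mitochondria, *Prdx3* was 8.93-fold higher in principal and 6.47-fold higher in clear than in basal cells, and *Prdx5* was 6.97-fold higher in vas deferens principal cells.

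Regulators of mitochondrial biogenesis were sparse. *Ppargc1a* was at 95.8 UPM in clear cells, 7.86 in stroma and 3.76 to 3.93 in principal, muscle and basal cells. In vas deferens against epididymal principal cells *Ppargc1a* had the lowest ratio of the list (0.168) and *Ppargc1b* the highest (2.50). *Esrrg* was at 34.9 UPM in clear cells (51 UMIs) and at 3.93 or less elsewhere. *Esrra* was highest in clear (28.7), principal (25.0) and muscle cells (22.3), with 5.66 in basal cells, and *Ppargc1b* was highest in muscle (19.0) and clear cells (11.6). *Nrf1*, *Gabpa* and *Yy1* had their highest levels in endothelial cells (15.6, 39.5 and 180 UPM) and *Tfam* in principal cells (33.8 UPM). Ribosomal proteins of the cytosol served as a contrast. Of 79 genes, 1 was at least 2-fold higher (1.27%) and 29 lower (36.7%) in principal than in basal cells, while in the vas deferens comparison 3 were higher (3.80%) and 2 lower (2.53%).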

How the data were processed

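Per the labels, polyA RNA of 4 libraries was counted as UMIs. The authors aligned reads to mm10 with HISAT2 2.0.4, counted UMIs on RefSeq genes, ignored reads with several alignments, merged UMIs with sequencing errors, kept barcodes by total UMIs and subtracted ambient RNA (3.54% of UMIs), and deposited whole-number counts without normalization. The subtraction could not be undone, and ignoring such reads can lower genes with processed pseudogenes, so ratios compare 1 gene between groups. The deposited size factor of each cell, a score, was not used. Of the members, 36 overlap another gene.

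The members and lists were chosen with earlier results of these data known. UMIs were summed over the authors' cell populations, principal ones being numbered through the cell numbers of the paper's tables. Levels were given exact Poisson intervals, ratios exact conditional ones and isoform shares Clopper-Pearson ones. A gene entered a comparison with 20 UMIs in either group, and a count of 0 took a floor of 3 UMIs. Tags at the 3′ end need no scaling by length.

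Members named were the 5 highest and 5 lowest ratios of each comparison, isoform pairs, the *Sdh* genes, the largest member of each complex, up to 10 members whose highest type differed from that of their complex, regulators and the extreme ratios of related lists. Outside this rule, *Cd52*, the pericyte and endothelial genes, *Atpif1*, *Ndufa7*, *Atp5s*, *Atp5sl* and the length split were chosen after values were seen, as was dropping *Rps6k* genes and *Rps19bp1* from the ribosomal list. Exon lengths were from GENCODE vM21 (GRCm38) and promoter windows from RefSeq. Doublets, called with a nearest-neighbor score on simulated doublets at 0.8% per 1000 cells (16, 43, 21 and 98 cells by library), were kept. Alternatives changed the fold, the UMI minimum, the denominator, the cells, the weighting, doublets, the gene list and the libraries, and, added after seeing the data, the complex of *Ndufa4*. The counting rule was tested on simulated data. Some genes that the naming rule picks are not reported here. The work used Python 3.11.15, matplotlib 3.10.9, scikit-learn 1.9.0, SciPy 1.17.1, NumPy 2.4.6 and pandas 2.3.3.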

Additional observations from a re-analysis of the deposited data

Results flagged for a closer look

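The vas deferens library lay outside the range of all 3 epididymal libraries in 4 cell types, and not in 1 direction. The share of UMIs from the 82 genes there was 4.73% in principal cells, above the epididymal 1.89% to 2.48%. In clear cells it was 4.15%, below 4.46% to 4.58%, in stromal cells 1.26%, below 1.86% to 2.09%, and in basal cells 1.36%, below 1.41% to 1.74%. With 1 library per region the opposite directions of principal cells and the other 3 types were not tested. The clear value rested on 38 cells, and the stromal value included the 2 populations nearly confined to that library.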

How the results depend on the processing

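No paired analysis was possible because each group held 1 library and no result came from a test. Among the 60 named ratios, none of 2-fold or more reversed under the alternatives run, while some nearer to 1 crossed it. Other members were not checked for reversal. Of the alternatives of the main summaries, 89 stayed close to the reported value and 21 moved. The margin between the lowest of muscle, clear and principal cells and the highest of the other types (2.05) was 2.08 in cells with at least 1000 UMIs, 1.94 without ribosomal protein UMIs, 2.27 without the 50 largest genes, 2.07 without 4 members that are no standard subunits, 1.58 as a mean of libraries, and 1.13 to 2.33 with a library left out. The number of complexes with that order (5) was 3 to 5 with a library left out. Members higher in principal than in basal cells (45) were 26 at a fold of 3 and 19 to 55 with a library left out. The 19, of 78 without the vas deferens, was below the 26.2% of all genes. At a fold of 3 there were 40 in clear against basal cells and 11 in the vas deferens comparison. The share of all genes falls as the fold rises and is not given here for a fold of 3. Those counts are therefore not set against it. The 0 of the clear populations was 0 to 1. The *Atp5g1* share of 56.4% was 52.6 to 58.0%. The vas deferens share over the highest epididymal one in principal cells (1.91) was 1.83 in cells with at least 1000 UMIs, 1.98 without ribosomal protein UMIs and 1.70 without the 50 largest genes. Of 470 alternatives of 60 named ratios, 24 moved by over 1.5 times, all of them with a library left out. Leaving out the vas deferens was not possible in its own comparison. Depth limits the minor isoforms most, since *Cox8b* and *Cox8c* had under 20 UMIs.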
